A study of Homo sapiens with 4 samples.

Results

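The mitochondrial ribosomal protein genes were followed in KM-H2, an established Hodgkin lymphoma cell line, as the set of genes whose annotated symbol starts with MRPL or MRPS and a digit. Only probe sets annotated to 1 gene were used, pseudogenes were left out, and each gene was read at its probe set of highest mean. This gave 76 of 19775 named genes, of which 75 encode proteins and 1, MRPL20-AS1, is a non-coding antisense RNA that is given apart. The 4 arrays fell into 2 groups. The 2 knockdown arrays were of KM-H2 cells transduced with the lentiviral vector pGIPZ-sh.FLJ27352, whose hairpin is aimed at the BX648577 part of the CIITA-BX648577 fusion transcript, and the 2 control arrays were of KM-H2 cells with a non-silencing control. The labels call the cells of both groups transduced KM-H2 cells and name the lentiviral vector only for the hairpin. Only 1 hairpin was used, and the labels name no clone of the cells and do not say whether replicates were separate cultures, so p-values measure the spread between these arrays, which may be technical. The study asked how gene expression changes once the fusion transcript is targeted.

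Mitochondria make the few proteins encoded in their own genome on a ribosome of their own. Its RNAs come from mitochondrial DNA, while all its proteins are encoded in the nucleus, made in the cytosol and imported. It descends from a bacterial ribosome. MRPL genes encode mostly proteins of the large subunit, which joins amino acids, and MRPS genes mostly proteins of the small subunit, which decodes the messenger RNA. Some have counterparts in bacteria and others occur only in mitochondria. MRPS18A and MRPS30, despite their names, encode proteins of the large subunit and were counted there. The proteins made on the mitochondrial ribosome are core subunits of respiratory chain complexes, so this ribosome is required for respiration in any cell with mitochondria.

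Array means lay between 53.3 and 54.6 intensity units. Across all probe sets the log2 values correlated at r = 0.987 between the knockdown arrays, at 0.980 between the control arrays and at 0.979 to 0.982 between arrays of different groups, across probe sets, which are not replicates. The probe set of PIERCE2, the gene that FLJ27352 corresponds to by general knowledge, read 621 and 590 in knockdown against 880 and 947 in control. The groups did not overlap at this presumed target, an order that 24.5% of all genes tested shared. Its limma adjusted p was 0.252 with 1 prior variance for all genes and 9.74e-05 with a prior variance that follows mean intensity. The CIITA probe set of highest mean read 60.7 and 53.6 in knockdown against 59.6 and 65.1 in control, with overlap. Whether either probe set reads the fusion is not known. All 8 markers of Hodgkin Reed-Sternberg cells passed the filter on dim probe sets, with summed intensities of 1804 and 1721 in knockdown and 1741 and 1734 in control. Single markers in that sum went opposite ways. Both knockdown arrays read below both control arrays at FSCN1 (means of 504 in knockdown and 631 in control). They read above at FUT4 (104 in knockdown and 75.3 in control) and BATF3 (583 in knockdown and 489 in control), and the rest overlapped. Of 4 T cell markers 1 passed, CD3D, which carries most of the list's sum of 283 and 241 in knockdown and 204 and 205 in control, while CD3E, CD2 and CD5 lay near background. Summed stromal markers were 139 and 122 in knockdown and 158 and 193 in control, all 4 having passed, and the part of these lists in the results below was not tested. Myeloid markers summed to 110 and 112 in knockdown and 114 and 114 in control (2 of 4 passed), and epithelial markers to 34.2 and 25.6 in knockdown and 23.4 and 47.3 in control (1 of 4 passed).

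All 75 protein genes passed the filter on dim probe sets, as did 12922 of the named genes. Their mean intensity over the 4 arrays ran between 36.3 and 811 with a median of 171. Each probe set binds its target with its own strength, so these intensities do not rank the genes by transcript number. A log2 fold change below is the knockdown mean minus the control mean of log2(intensity + 16), a scale that understates changes of dim genes, and levels are linear intensities with the mean ± SD over n = 2 arrays per group. In bulk RNA, a change in the share of some cells and a change in RNA per cell cannot be told apart.

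The mitochondrial ribosomal protein genes lay slightly higher in knockdown than in control cells, by a median of 0.10 on the log2 scale (quartiles 0.02 and 0.20). Of the 75 genes, 60 lay above 0 and 15 below, which is 80.0%, against 47.5% of all genes tested. Over all genes tested the median was -0.01. All 75 genes here are bright, being among the 7889 genes with a probe set mean at or above the 75th percentile. Over those 7889 bright genes the median was 0.01 with 52.8% above 0. The whole range of the members was narrow, between -0.11 for MRPL58 and 0.49 for MRPL12. At 35 members both knockdown arrays lay above both control arrays, which is 46.7%, against 22.7% of all genes tested. Of the 7889 bright genes, 2286 had this order and 1869 the opposite one. The opposite order held for 4 members, MRPL58, MRPS22, MRPS16 and MRPL14, and for 24.5% of all genes tested. The 4 were named after their values were seen.

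**Figure D1:**
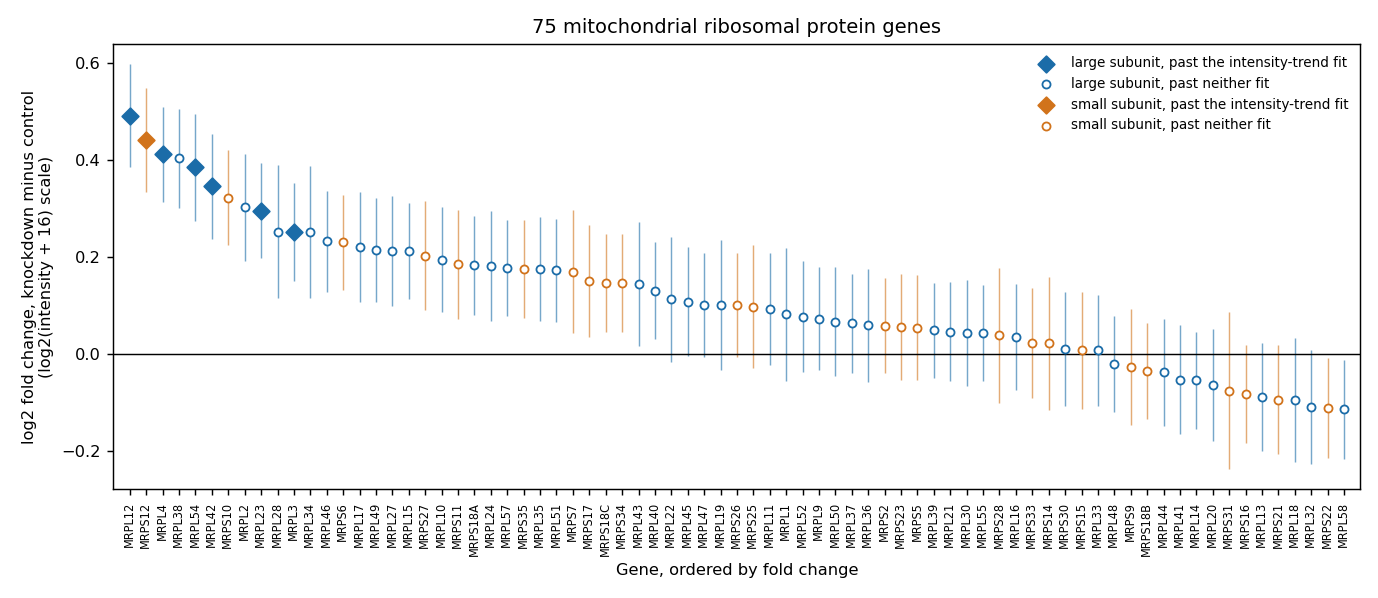
Log2 fold change, knockdown minus control, of the 75 mitochondrial ribosomal protein genes (y axis, log2(intensity + 16) scale), ordered along the x axis, with bars of 1 SE from the common-prior fit of 2 against 2 arrays. Blue marks large subunit and orange small subunit genes, and diamonds mark the 7 genes past the intensity-trend fit, all of them on the high side, while 60 points lie above 0.

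The control arrays differed between themselves by about as much as the groups did. Control replicate 1 read higher than control replicate 2 at 56 of the 75 genes, with a median difference of 0.10 (all genes tested: 53.2% and 0.02). Knockdown replicate 1 read higher than knockdown replicate 2 at 48 of them, with a median difference of 0.04 (all genes tested: 7532 of 12922 and 0.03). For 45 members, or 60.0%, the lowest of the 4 values was on control replicate 2, against 27.8% of all genes tested. The highest value was on knockdown replicate 1 for 33 members, on control replicate 1 for 20, on knockdown replicate 2 for 18 and on control replicate 2 for 4. Measured against each gene's mean over the 4 arrays, the median deviation was 0.09 and 0.03 on the knockdown arrays and 0.00 and -0.11 on the control arrays. Without control replicate 2 the members' median was 0.04 with 44 of 75 above 0, and without control replicate 1 it was 0.17 with 67 above 0. Over all genes, 46.2% lay above 0 without control replicate 2 and 49.4% without control replicate 1. The members' count above 0 therefore rested in part on control replicate 2. Of the 75 genes, 40 stayed above 0 and 5 below 0 whichever array was left out, and 30 changed sign at least once. Kept and changed signs were counted for the members only, so no share over all genes stands beside them.

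**Figure D2:**
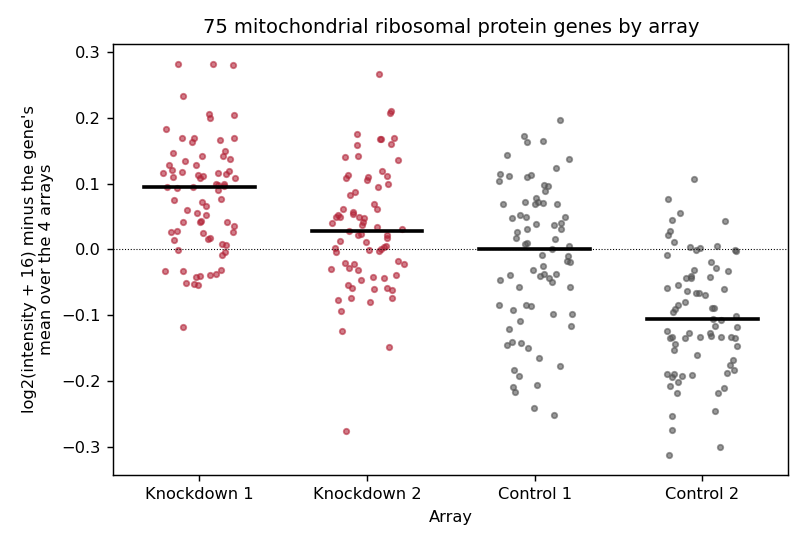
For each of the 4 arrays (x axis), the log2(intensity + 16) of each of the 75 genes minus that gene's own mean over the 4 arrays (y axis, log2 units), with a bar at the median. The medians are 0.09 and 0.03 for the knockdown arrays and 0.00 and -0.11 for the control arrays, so control replicate 2 stands lowest.

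No member passed limma's common-prior fit, which uses 1 prior variance for all genes, at an adjusted p threshold of 0.05 (Benjamini-Hochberg over all genes tested), and that fit called 0.0155% of all genes, none of them higher. At an unadjusted p below 0.05 it gave 10 members, all higher in knockdown, or 13.3%, while 6.41% of all genes were higher and 7.68% lower at that p. In simulated arrays with the same means, each gene's variance was drawn from that common prior, whatever its intensity. There the common-prior fit called 2.00% of bright genes changed by 0.5 on the log2 scale and 81.6% of those changed by 1. In the data no member reached 0.5. A spread that follows intensity was not simulated, so these rates need not hold for the bright genes of the data. The intensity-trend fit, in which the prior variance follows mean intensity, called 7 members higher and 0 lower. Those 7 are 9.33% of the members, and over all genes that fit called 1.59% higher and 1.40% lower. Among the 7889 bright genes, which hold all 75 members, it called 198 higher and 158 lower. The 7 genes were MRPL12, MRPS12, MRPL23, MRPL42, MRPL54, MRPL4 and MRPL3, in order of adjusted p, 6 of the large subunit and 1 of the small. Each SE given below is from the common-prior fit, also where the adjusted p beside it is from the intensity-trend fit. The SE of the intensity-trend fit was 0.065 at MRPL3 and 0.13 at MRPL38, against 0.10 at both in the common-prior fit.

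MRPL12 encodes the mitochondrial counterpart of the bacterial stalk protein that recruits translation factors, and it also binds the mitochondrial RNA polymerase. It read 282 and 268 in knockdown against 201 and 182 in control. Both knockdown arrays stood well above both control arrays, and the gap between groups exceeded the gaps within them. The means were 275 ± 9.89 in knockdown and 191 ± 13.7 in control, a log2 fold change of 0.49 (SE 0.11, limma adjusted p = 0.252 in the common-prior fit and 0.00437 in the intensity-trend fit). MRPL12 was the one member that the intensity-trend fit called whichever of the 4 arrays was left out, with fold changes between 0.42 and 0.56 and limma adjusted p-values up to 0.0383. A second MRPL12 probe set lay below the filter, at 4.54 in knockdown and 7.18 in control, and with probe sets averaged the fold change was 0.16 (limma adjusted p = 0.492 in the intensity-trend fit).

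MRPS12 encodes the counterpart of the bacterial decoding-centre protein S12, which guards the accuracy of translation. It read 212 and 194 in knockdown against 151 and 139 in control, with no overlap between groups. The log2 fold change was 0.44 (SE 0.11, limma adjusted p = 0.255 in the common-prior fit and 0.0139 in the intensity-trend fit). In the intensity-trend fit it kept its call without knockdown replicate 2 and without control replicate 1 but not without the other two arrays, where limma's adjusted p reached 0.0785. The remaining MRPS12 probe sets, all dim, lacked this difference. They averaged 10.7 in knockdown and 11.0 in control, 8.13 in knockdown and 14.5 in control, and 7.09 in knockdown and 8.41 in control, the middle one with a log2 fold change of -0.31. With all 4 averaged the MRPS12 fold change was 0.017 (limma adjusted p = 0.972 in the intensity-trend fit).

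MRPL4, MRPL23 and MRPL3 encode counterparts of large subunit proteins of bacteria, and those of MRPL4 and MRPL23 line or border the tunnel through which the new chain leaves. MRPL4 read 83.8 and 84.0 in knockdown against 59.9 and 58.5 in control, tight within each group, with a log2 fold change of 0.41 (SE 0.10, limma adjusted p = 0.0409 in the intensity-trend fit). Its other probe sets gave 0.33, at 70.0 in knockdown and 52.5 in control, and 0.29 (31.6 in knockdown and 23.1 in control). All 3 MRPL4 probe sets thus lay higher in knockdown. MRPL23 read 444 and 457 in knockdown against 366 and 363 in control, again without overlap, with a log2 fold change of 0.30 (SE 0.10, limma adjusted p = 0.0298 in the intensity-trend fit). MRPL3, in which mutations cause a mitochondrial cardiomyopathy in people, read 686 and 645 in knockdown against 560 and 553 in control, with a log2 fold change of 0.25 (SE 0.10, limma adjusted p = 0.0438 in the intensity-trend fit). None of the 3 was called by that fit once any array was left out, with limma adjusted p-values between 0.0564 and 0.260. With probe sets averaged none was called either, and the MRPL23 fold change was 0.18 (limma adjusted p = 0.304 in that fit).

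MRPL54 and MRPL42 encode large subunit proteins found only in mitochondrial ribosomes. MRPL54 read 139 and 156 in knockdown against 104 and 114 in control, with a log2 fold change of 0.38 (SE 0.11, limma adjusted p = 0.0381 in the intensity-trend fit). MRPL42 read 292 and 279 in knockdown against 235 and 208 in control, with a log2 fold change of 0.35 (SE 0.11, limma adjusted p = 0.0319 in the intensity-trend fit). The groups did not overlap at either gene, but each kept its call in that fit with only 1 of the 4 arrays left out, knockdown replicate 1 for MRPL54 and control replicate 1 for MRPL42. Its adjusted p otherwise reached 0.371 for MRPL54 and 0.146 for MRPL42. The other MRPL42 probe sets gave smaller differences, 98.6 in knockdown and 85.2 in control (0.18), and 55.6 in knockdown and 51.8 in control (0.08). With all averaged the MRPL42 fold change was 0.20 (limma adjusted p = 0.285 in the intensity-trend fit).

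**Figure D3:**
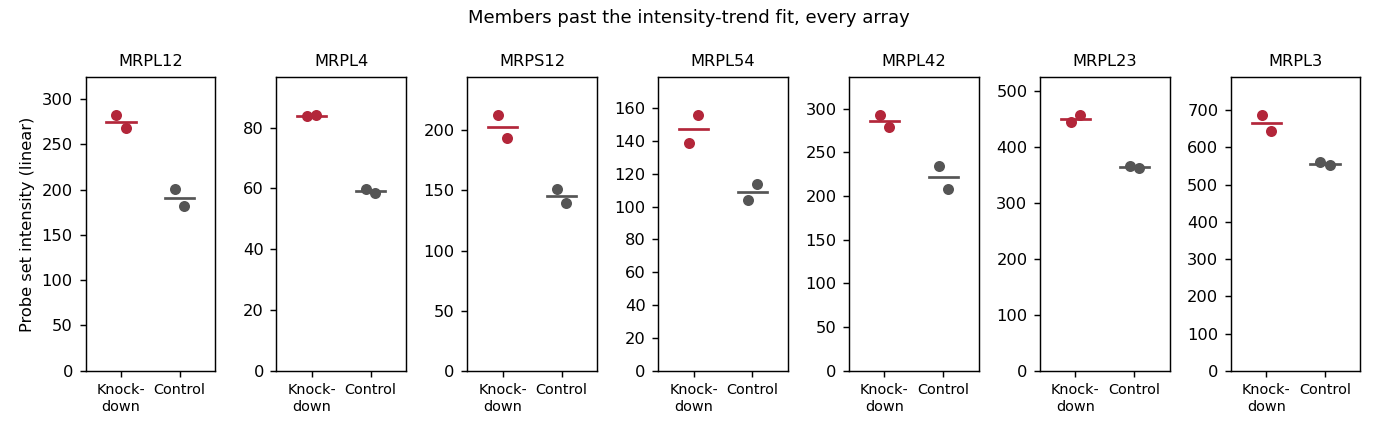
Linear probe set intensity (y axis, from 0, a separate scale per gene) on the 2 knockdown arrays (red) and the 2 control arrays (grey) for the 7 members past the intensity-trend fit, with a bar at each group mean. In each panel both knockdown points lie above both control points, as at MRPL12 with 282 and 268 in knockdown against 201 and 182 in control.

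Other members of large t followed the same order without passing either fit. MRPL38, of the large subunit and among the dimmest members, read 44.8 and 42.2 in knockdown against 27.8 and 30.3 in control, a log2 fold change of 0.40 (SE 0.10, limma adjusted p = 0.0942 in the intensity-trend fit). MRPS10, of the small subunit, read 121 and 124 in knockdown against 95.8 and 93.4 in control (0.32, SE 0.10, limma adjusted p = 0.0772 in that fit). All 3 MRPS10 probe sets lay higher in knockdown, the others by 0.17 and 0.36, but the chosen one carries the platform's suffix for probes that may cross-react with other transcripts.

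At the low end, no member fell in either fit. MRPL58, a peptidyl-tRNA hydrolase in the large subunit that frees stalled ribosomes, read 121 and 118 in knockdown against 126 and 136 in control. Its log2 fold change was -0.11 (SE 0.10, limma adjusted p = 0.640 in the common-prior fit). The groups were separate, though by a margin smaller than the spread within control. MRPS22 read 164 and 180 in knockdown against 189 and 185 in control (-0.11), while its other probe sets gave -0.09, -0.03 and 0.03. All 4 carry that suffix as well. MRPL32, which is matured by a protease of the inner membrane, read 156 and 151 in knockdown against 183 and 153 in control (-0.11), and control replicate 1 alone stood apart. MRPL18 read 235 and 230 in knockdown against 278 and 223 in control (-0.10), and MRPL13 read 396 and 400 in knockdown against 456 and 396 in control (-0.09). At both genes the groups overlapped, with control replicate 1 high. MRPS21 read 470 and 406 in knockdown against 457 and 477 in control (-0.09). MRPS16 read 81.4 and 77.1 in knockdown against 87.0 and 82.8 in control (-0.08), but its second probe set went the other way, at 38.6 in knockdown and 26.6 in control (0.36).

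None of the 4 brightest and 4 dimmest members passed a fit. MRPS33 read 814 and 817 in knockdown against 867 and 744 in control (0.02), and both knockdown values lay between the control values. MRPL20 read 667 and 585 in knockdown against 685 and 625 in control (-0.07), with overlap. MRPL47 read 656 and 636 in knockdown against 635 and 570 in control (0.10), and MRPL51 read 824 and 753 in knockdown against 722 and 674 in control (0.17). The groups did not overlap at these 2 genes. At the dim end MRPL43 read 54.7 and 46.1 in knockdown against 49.2 and 39.2 in control (0.14), with overlap. MRPL44 read 42.6 and 39.7 in knockdown against 46.2 and 39.3 in control (-0.04), while its other probe set gave 43.1 in knockdown and 34.5 in control (0.23). MRPL20-AS1, the antisense RNA, read 13.0 and 13.3 in knockdown against 11.7 and 15.5 in control (-0.02).

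The 3 MRPS18 genes are paralogs whose products sit at different places of the ribosome. MRPS18A, a large subunit protein, read 52.8 and 49.3 in knockdown against 44.8 and 41.4 in control (0.18). MRPS18C, in the small subunit, read 200 and 187 in knockdown against 175 and 171 in control (0.15). MRPS18B, also in the small subunit, read 269 and 260 in knockdown against 266 and 277 in control (-0.04). The first 2 did not overlap between groups and MRPS18B did, but none passed a fit, with limma adjusted p-values from 0.401 to 0.872 in the intensity-trend fit. Further probe sets above the filter gave 0.03 for MRPS18A, 0.06 for MRPS18B and -0.02 for MRPS18C, the last 2 with the sign opposite to the chosen probe set.

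The subunits leaned the same way. The 50 genes of the large subunit had a median of 0.10 with 41 above 0 and 6 past the intensity-trend fit, and the 25 of the small subunit a median of 0.06 with 19 above 0 and 1 past that fit. The difference between the subunits was not tested. The 43 genes with a bacterial counterpart had a median of 0.10 with 35 above 0, and the 29 found only in mitochondria a median of 0.10 with 23 above 0. MRPL55, MRPS18A and MRPS18B were assigned to neither. Probe sets of one gene often differed. Beside the chosen ones, 49 probe sets of these genes passed the filter, of which 32 lay above 0, with a median of 0.07, and 29 had the sign of their gene's chosen probe set. At MRPS12 and MRPL19 probe sets lay more than 0.2 on both sides of 0. The chosen MRPL19 probe set read 416 and 389 in knockdown against 420 and 333 in control (0.10), and its dim ones gave -0.37 and 0.30.

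Other genes of the pathway were read from lists beside it. Of 25 tested assembly factors of the mitochondrial ribosome, 16 lay above 0, with a median of 0.05, and 1 passed the intensity-trend fit. This was RPUSD3, a pseudouridine synthase of mitochondrial RNA, at 42.2 and 33.2 in knockdown against 21.7 and 18.5 in control (0.57, SE 0.12, limma adjusted p = 0.0364 in that fit). RBFA, which helps mature the small subunit, read 30.6 and 29.5 in knockdown against 18.1 and 22.1 in control (0.35) and did not pass. METTL17, an assembly factor named after its values were seen, read 117 and 114 in knockdown against 153 and 141 in control (-0.31, limma adjusted p = 0.0785 in the intensity-trend fit), without overlap, and did not pass. Of 14 mitochondrial translation factors 8 lay above 0, with a median of 0.07. TACO1, an activator of translation of the COX1 subunit, read 65.6 and 64.2 in knockdown against 41.2 and 43.6 in control (0.47, SE 0.10, limma adjusted p = 0.0326 in the intensity-trend fit) and was the only one called there. MRRF, the recycling factor, read 56.9 and 59.6 in knockdown against 48.4 and 42.7 in control (0.27) and was not called. POLRMT, the mitochondrial RNA polymerase that MRPL12 binds, read 94.4 and 92.3 in knockdown against 78.5 and 76.7 in control (0.22), and TFAM, which packs mitochondrial DNA, read 137 and 131 in knockdown against 168 and 141 in control (-0.18). Neither passed a fit. The ribosomal proteins outside the MRPL and MRPS names had 3 of 4 above 0 and a median of 0.05, with DAP3 at 300 and 314 in knockdown against 269 and 292 in control (0.12) and GADD45GIP1 at 97.8 and 91.4 in knockdown against 92.5 and 84.4 in control (0.08). Neither of these passed a fit.

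The 70 tested nuclear-encoded subunits of the respiratory chain had a median of 0.03 with 44 above 0, and 4 rose and 0 fell in the intensity-trend fit. Among them UQCR11 read 839 and 822 in knockdown against 667 and 679 in control (0.30) and NDUFA5 read 208 and 202 in knockdown against 167 and 153 in control (0.33), both called in that fit. The 58 tested proteins of the cytosolic ribosome had a median of -0.02 with 24 above 0, and 1 passed the intensity-trend fit. Over all genes that fit called 1.59% higher. The 1 was RPS3, at 1570 and 1581 in knockdown against 1146 and 1246 in control (0.39). Its limma adjusted p was 0.255 in the common-prior fit and 0.00157 in the intensity-trend fit. RPL39L read 103 and 115 in knockdown against 82.5 and 87.0 in control (0.31) and did not pass. Control replicate 1 exceeded control replicate 2 at 70.0% of respiratory chain subunits and at 58.6% of cytosolic ribosomal proteins, against 74.7% of mitochondrial ribosomal proteins. No test of the difference between these lists was made.

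**Figure D4:**
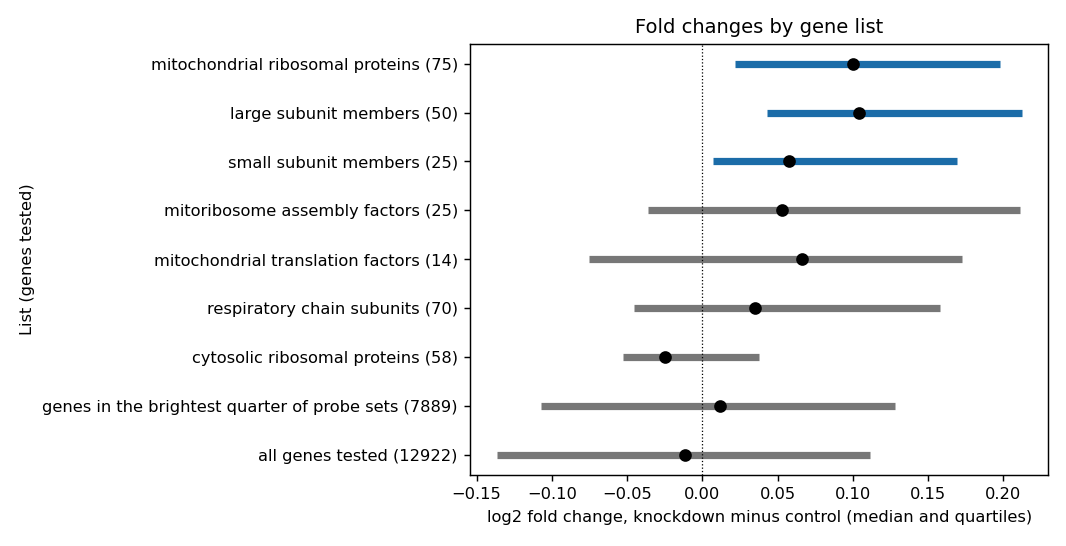
Median (black point) and quartiles (bar) of the log2 fold change, knockdown minus control, for each list, with the number of genes tested in parentheses. The mitochondrial ribosomal proteins and their subunits are in blue and have medians of 0.10, 0.10 and 0.06, against -0.02 for cytosolic ribosomal proteins and -0.01 for all genes tested.

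Motif counts in the promoters of these genes differed from those over all genes, and the choice of members did not use them. RefSeq windows of GRCh38.p14, 250 bases before to 50 after the gene start, were found for 67 of the 75 genes and for 15843 protein-coding genes in all. On either strand, the ETS motif CCGGAAG stood in 28 of the 67 windows (41.8%) against 14.2% of all, and the YY1 motif AAGATGG in 22 (32.8%) against 6.40%. YY1 and the ETS-family factor GABP are known regulators of genes for mitochondrial proteins. The motif of NRF1, GCGCATG, shortened after a longer form had been counted, stood in 7 (10.4%) against 5.87% of all, and the TATA box TATAAA in 2 (2.99%) against 9.63%. At least 1 of the NRF1, ETS and YY1 motifs stood in 43 windows (64.2%) against 23.5% of all. Every member passed the filter on dim probe sets, while the genes counted as all include some that did not. Of tested genes with a window, 1815 had an ETS match and 7934 none. A YY1 match stood in 736 and was absent from 9013, and for NRF1 these counts were 719 and 9030. ETS and YY1 letters can overlap by 3 bases, which happened in 0 members' windows. Among the members, median fold changes were 0.10 with and 0.09 without an ETS match, and 0.11 with and 0.07 without a YY1 match. Over all tested genes with a window they were 0.013 with and -0.007 without an ETS match. For YY1 these were 0.023 with and -0.005 without a match. The members' medians lay above 0 with and without a match. A match describes the letters of the window and shows no binding. Windows of 4 of the genes past the intensity-trend fit are shown 5′ to 3′ on the strand of the gene because they span no match, 1 match and matches of both kinds, with ETS and YY1 matches in capitals (none of the 4 windows holds the NRF1 letters).
MRPL12 (chr17:81703117-81703416, plus strand): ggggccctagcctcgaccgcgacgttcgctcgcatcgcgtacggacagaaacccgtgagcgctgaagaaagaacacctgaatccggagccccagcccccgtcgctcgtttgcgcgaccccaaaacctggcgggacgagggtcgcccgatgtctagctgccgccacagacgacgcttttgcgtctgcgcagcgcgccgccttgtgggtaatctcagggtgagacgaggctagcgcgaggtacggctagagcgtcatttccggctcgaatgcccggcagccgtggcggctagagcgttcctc
MRPS12 (chr19:38930694-38930993, plus strand): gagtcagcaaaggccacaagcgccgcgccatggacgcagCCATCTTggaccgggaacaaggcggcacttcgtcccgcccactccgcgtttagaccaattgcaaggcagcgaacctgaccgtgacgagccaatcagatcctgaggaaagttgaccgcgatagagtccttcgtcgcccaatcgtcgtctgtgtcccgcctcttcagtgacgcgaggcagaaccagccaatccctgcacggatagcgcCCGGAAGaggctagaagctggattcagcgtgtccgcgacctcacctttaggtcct
MRPL42 (chr12:93467264-93467563, plus strand): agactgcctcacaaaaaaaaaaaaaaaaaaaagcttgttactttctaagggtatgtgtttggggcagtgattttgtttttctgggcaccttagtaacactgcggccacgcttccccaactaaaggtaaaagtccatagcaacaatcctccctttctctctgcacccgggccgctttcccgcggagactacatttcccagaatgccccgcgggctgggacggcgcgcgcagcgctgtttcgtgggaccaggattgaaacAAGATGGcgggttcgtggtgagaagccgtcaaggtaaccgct
MRPL3 (chr3:131502922-131503221, minus strand): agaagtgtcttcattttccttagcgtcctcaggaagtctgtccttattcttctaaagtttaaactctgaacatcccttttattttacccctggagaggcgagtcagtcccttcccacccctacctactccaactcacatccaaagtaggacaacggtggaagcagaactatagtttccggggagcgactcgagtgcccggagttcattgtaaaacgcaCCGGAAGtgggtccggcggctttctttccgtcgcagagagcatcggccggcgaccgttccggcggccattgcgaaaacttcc
The MRPL12 window, of the gene with the largest fold change, holds none of these motifs. That of MRPS12 holds a YY1 match far upstream and an ETS match close to the start, that of MRPL42 a YY1 match just after the start, and that of MRPL3 an ETS match upstream of it.

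Many of these genes start head to head with a neighbour. A gene on the opposite strand began within 1000 bases upstream for 18 of the 67 genes (26.9%), against 10.3% of all, which again include genes not tested. MRPL46 and MRPS11 form such a pair of 2 members, 320 bases apart, with fold changes of 0.23 and 0.18. MRPS12 starts 181 bases from SARS2, the mitochondrial seryl-tRNA synthetase gene, which had a fold change of -0.10 against 0.44 for MRPS12. MRPL54 starts 990 bases from APBA3, which had 0.25 against 0.38 for MRPL54. Of 17 members whose partner was tested, 10 had a partner above 0, with a median partner fold change of 0.05. These counts hold MRPL46 and MRPS11 each as the partner of the other, both above 0. Over all genes tested 47.5% lay above 0. The neighbours were named after their values were seen. The 4 members on chromosome 19, MRPL4, MRPL54, MRPS12 and MRPL34, all lay above 0 with a median of 0.40, and 3 of them passed the intensity-trend fit. Over all 821 tested genes of that chromosome the median was 0.01 with 51.5% above 0. Chromosome 19 was singled out after its values were seen, and no test was made.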

How the data were processed

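The authors deposited an intensity on a linear scale for each of 54613 probe sets on each array. Qiagen columns were used for the RNA and the Affymetrix 1-cycle method for labelling, per the labels' protocols. The software and scaling behind the intensities are not stated in those protocols. The authors' values have a floor at 1. Probe sets were named through the platform annotation (41091 with 1 gene, 1801 with several, 11721 with none), which left out 3 probe sets that name a member with another gene. MRPS36 carries the symbol KGD4 there and is no member.

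Intensities were turned into log2(intensity + 16), and genes with a probe set mean below the median of all probe sets (4.60 on the log2 scale) were left out. Array medians spanned 0.07 and were not centred. The groups were compared over 12922 genes with lmFit and eBayes of limma 3.58.1 under R 4.3.3, with the Benjamini-Hochberg adjustment over all of them, as a common-prior fit and as an intensity-trend fit. Only the common-prior fit was tested on simulated data. Alternatives were other pseudocounts (1 and 64), filters, normalizations, averaging all probe sets per gene, robust hyperparameters, a threshold of 0.10, a replicate block and leaving out each array. The 2 replicates per group limit the precision.

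The members and lists were chosen with earlier results of these data known. Named are the 8 members of largest and the 8 of smallest t, those past either fit, the 4 brightest and the 4 dimmest, the MRPS18 paralogs, MRPL12 and MRPS12, genes whose probe sets disagree by over 0.2 in both directions, and 2 genes per other list. No set test was made. Promoter windows and gene symbols are RefSeq's (GRCh38.p14).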

Additional observations from a re-analysis of the deposited data

How the results depend on the processing

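The common-prior fit called 0 members at a threshold of 0.10, with a pseudocount of 1, quantile normalization, median centring, no filter or a stricter one, robust hyperparameters, averaging probe sets per gene and a replicate block, and with any array left out (0 to 0). With a pseudocount of 64 it called 6 (1.74% of all genes called higher), and the intensity-trend fit called 7. Combined with the intensity trend, chosen after seeing the data, the count was 10 with median centring (3.75% of all genes called higher), 5 with quantile normalization (1.21%), 2 with no filter (0.268%), 0 with probe sets averaged per gene (0.156%), 11 with a replicate block (4%), and 1 to 4 with single arrays left out (1 without control replicate 2, 2 without either knockdown array, 4 without control replicate 1). All members called in any of these were higher in knockdown.

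The count above 0 stayed between 54 and 67 of 75 in all settings except without control replicate 2 (44), and the median ran from 0.044 (without control replicate 2) to 0.17 (without control replicate 1). Median centring moved the median of all genes to 0.05, with 60.2% above 0, and that of the members to 0.16, which left 0.11 between them. Whether same-numbered arrays were handled together is not known, and 2 arrays per group cannot settle it. The correlation of same-numbered deviations was -0.01 over all genes tested. The common-prior fit called 0 members and 2 of all genes both with and without the block. In the intensity-trend fit the block raised the calls from 7 to 11 members and from 2.99% to 7.82% of all genes. Among the named members, signs turned, in both fits alike, only where no fit made a call. With median centring MRPL44 stood at 0.019 and MRPS18B at 0.021. With probe sets averaged MRPL20 stood at 0.024, MRPL44 at 0.095, MRPS16 at 0.14 and MRPS18B at 0.010. With single arrays left out MRPL20 ran from -0.16 to 0.027 and MRPS21 from -0.20 to 0.0079, both highest without knockdown replicate 2. MRPL13 ran from -0.19 to 0.0090, MRPL18 from -0.24 to 0.054, MRPL32 from -0.23 to 0.0079, MRPL44 from -0.12 to 0.047, MRPL19 from -0.060 to 0.26 and MRPS33 from -0.086 to 0.13, each lowest without control replicate 2 and highest without control replicate 1. Without control replicate 1 MRPL20 stood at 0.00047. With no change of sign, MRPL43 ran from 0.023 to 0.26, MRPL47 from 0.024 to 0.18 and MRPL51 from 0.11 to 0.24, the first 2 lowest without control replicate 2 and highest without control replicate 1. The causes were not tested.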
